A study of Gallus gallus with 3 samples.

Results

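The 5 genes described here, *KCNE1*, *KCNQ1*, *SLC12A2*, *BSND* and *ATP1B1*, encode proteins by which vestibular dark cells secrete K+ into the endolymph. They were chosen by name, by looking up their symbols in the gene table that accompanies each library, and all 5 were found among its 30108 genes. RNA had been sequenced from 1 type I hair cell at E20, from 1 type II hair cell at E19, and from whole ampullary cristae pooled from many chicken embryos at E16, a pool that stands here as the whole crista. Embryos were Isa Brown of both sexes, and no agent or genetic change is named for any group. Hair cells had been told apart in the patch-clamp recording by the presence (type I) or absence (type II) of the low-voltage-activated K+ current *I*KL, and their place in the epithelium is not given. The aspirated cytoplasm of each cell was amplified by template switching before sequencing (Patch-seq), while the crista library was made from extracted RNA with a related low-input kit.

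Dark cells are epithelial cells at the margin of the sensory patches of the vestibule, and they resemble the marginal cells of the cochlear stria vascularis. On their basolateral side the Na,K-ATPase and the Na-K-2Cl cotransporter NKCC1 take up K+, and chloride leaves again through channels that need the small subunit barttin. On the apical side K+ leaves into the endolymph through a channel formed by the pore subunit Kv7.1 (*KCNQ1*) and the accessory subunit *KCNE1*. In mice, loss of NKCC1, *Kcnq1* or *Kcne1* leads to collapse of the endolymphatic space and to vestibular dysfunction. Hair cells use this K+ as the carrier of the transduction current, and are not thought of as the cells that secrete it.

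Each condition has 1 library, so values have no replicate, conditions could not be tested against each other, and every difference is one between libraries. Levels are given as estimated reads and as TPM (transcript abundance scaled by gene length and by library). Detection here means at least 1 estimated read, and a gene with none is given the limit of 3 reads. Ranges in parentheses after reads or TPM are 95% intervals, exact Poisson, computed on rounded reads. They cover counting error only, since copies made by amplification were not marked with molecular identifiers. The libraries held 10779664 estimated reads in the type I cell, 11943061 in the type II cell and 67428006 in the whole crista.

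At least 1 read was found for 2340 genes in the type I cell (7.77% of all genes), for 2381 in the type II cell (7.91%) and for 18001 in the whole crista (59.8%). The hair cell libraries resembled each other closely, since all 1401 genes with at least 100 reads in either had a read in both, and 96.9% of these lay within 2-fold in CPM, reads scaled to library size. Of 18 matched hair cell markers, 9 had a read in the type I cell, 8 in the type II cell and 18 in the whole crista, and the summed level in TPM was 29845, 24061 and 3874 in that order of libraries. Most of it was the Ca2+ buffer gene *OCM1* in each library, while *MYO7A*, the unconventional myosin by which hair cells are usually recognised, was listed at 0 in both hair cells. Of 11 matched genes that every cell uses, a list chosen after values were seen, 6 had a read in either hair cell, and *HPRT1*, *TBP*, *SDHA*, *YWHAZ* and *B2M* were listed at 0 in both. A listing at 0 in a hair cell is therefore reported here as such and not as absence of the transcript.

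Of the 5 secretion genes, 2 (*KCNE1* and *ATP1B1*) were detected in the type I cell, the same 2 in the type II cell, and all 5 in the whole crista. Among the 3370 genes with at least 50 TPM in the whole crista, a minimum set after values were seen which all 5 members exceeded, 32.6% had a read in the type I cell and 32.3% in the type II cell. Of the 3370 genes, 2219 (65.8%) had no read in either hair cell, among them the 3 members *KCNQ1*, *SLC12A2* and *BSND*. In the whole crista the order of levels was *KCNE1* with 259.6 TPM (256.5 to 262.6), *ATP1B1* with 248 (245 to 252), *SLC12A2* with 219.7 (217 to 222), *BSND* with 57.6 (54.7 to 60.7) and *KCNQ1* with 56.0 (54.7 to 57.2). Only the neighbours *BSND* and *KCNQ1* had overlapping intervals. The levels of the members in each library show *ATP1B1* as the one gene that was higher in both hair cells than in the whole crista.

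**Figure D1:**
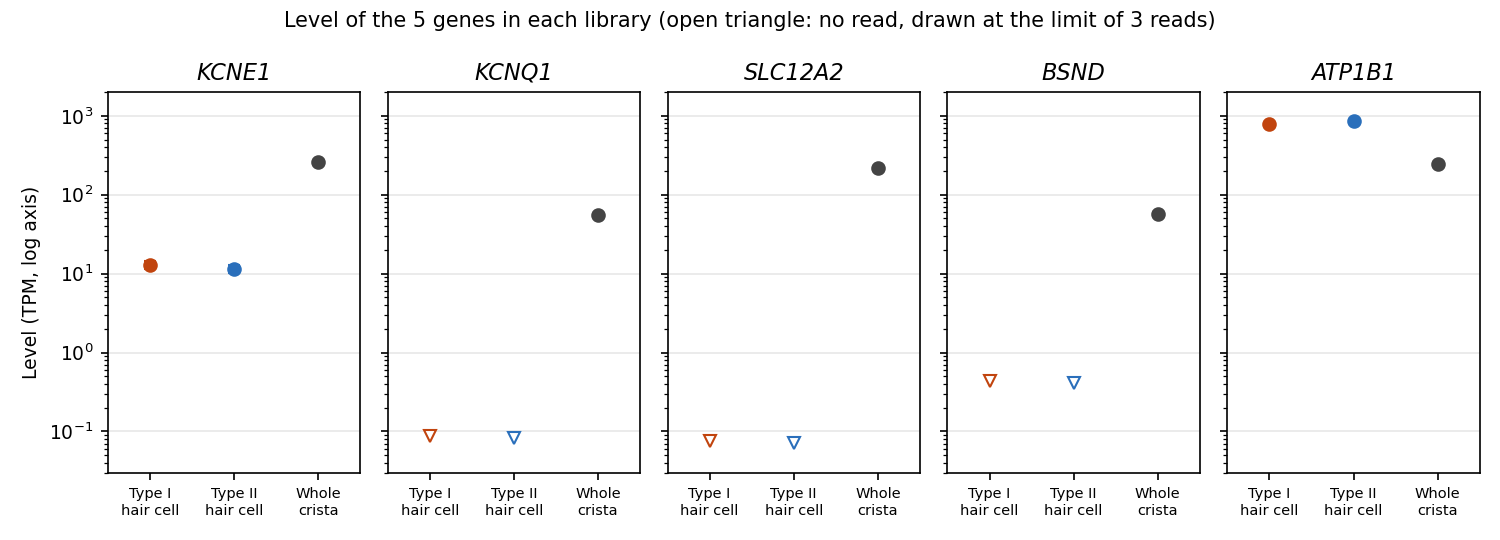
Level in TPM (log axis) of *KCNE1*, *KCNQ1*, *SLC12A2*, *BSND* and *ATP1B1* in the type I cell, the type II cell and the whole crista, 1 library each, with bars for the exact Poisson 95% interval where they exceed the symbol and open triangles at the limit of 3 reads for genes without a read. *KCNE1* sat at 12.8 and 11.4 TPM in the type I and type II cell and at 259.6 TPM in the whole crista, *ATP1B1* sat at 789, 857 and 248 TPM, and the other genes were at 0 in both hair cells.

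*KCNE1* (ENSGALG00010012863, GRCg7b chromosome 1, 105974672 to 105983096, protein coding) encodes a single-span membrane protein that slows the gating of the Kv7.1 channel and raises its current. In the type I cell it had 338 estimated reads (303 to 376), or 12.8 TPM (11.5 to 14.3). In the type II cell it had 320 reads (286 to 357), or 11.4 TPM (10.2 to 12.7). In the whole crista it had 28268 reads (27939 to 28600), or 259.6 TPM. These reads placed *KCNE1* near the middle of the detected genes of a hair cell, above 49.4% of them in the type I and above 51.1% in the type II cell, while in the whole crista it stood above 96.5%. The TPM ratio, type I over type II cell, was 1.13 (counting interval 0.964 to 1.32), an interval that includes 1. Its log2 value of 0.17 lay close to 0.11, the median over the 1687 genes that had 10 reads or more in both cells. Set against the whole crista, *KCNE1* was 20.2-fold lower in the type I cell (log2 ratio -4.34, ratio 0.0495 with counting interval 0.0443 to 0.0551) and 22.8-fold lower in the type II cell (log2 ratio -4.51, ratio 0.0439, interval 0.0392 to 0.0490). Over the scales tried, these folds ranged between 12.7 and 20.6 in the type I cell and between 14.6 and 22.8 in the type II cell. Of genes having 10 reads or more in both libraries of a pair, 15.5% of 1751 had a lower ratio than *KCNE1* in the type I and 15.04% of 1696 in the type II cell. In a pooled organ, fewer cells of a type and less RNA per cell cannot be told apart, and stage differs between the libraries as well.

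*KCNQ1* (ENSGALG00010024153, chromosome 5, 12837708 to 13159212, protein coding) encodes the pore subunit with which *KCNE1* assembles. It was listed at 0 reads in the type I cell and at 0 in the type II cell, with limits of 0.0870 and 0.0817 TPM, against 7875 reads (7702 to 8051) or 56.0 TPM in the whole crista. Set at these limits, its listed level was 644-fold lower in the type I and 685-fold lower in the type II cell. Over the scales tried these folds went down to 57.0 in both cells. *KCNE1* reads were thus present in both hair cells where reads of its usual partner were not. In the whole crista the accessory subunit gene exceeded the pore gene 4.64-fold in TPM. The annotation places an unnamed long non-coding RNA over 981 bases of *KCNQ1*, and it was not analysed here.

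Of the 10 *KCNQ* and *KCNE* genes, reads came from 2 in the type I cell, 1 in the type II cell and 9 in the whole crista. The shares of all genes were 7.77%, 7.91% and 59.8%. *KCNE1* made up 100% of the summed TPM of the *KCNE* genes in the type I cell, 100% in the type II cell and 92.7% in the whole crista, where *KCNE2*, a neighbour on chromosome 1 (105904507 to 105931585) with a similar role as an accessory subunit, followed with 5.59%. Among the pore genes, in the whole crista *KCNQ1* made up 91.7% of the summed *KCNQ* level of 61.1 TPM. *KCNE1* and *KCNQ1* were therefore the main members of their families in the crista by TPM, and *KCNE1* the only one of the 10 genes with more than 2 reads in a hair cell.

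*SLC12A2* (ENSGALG00010012969, chromosome Z, 57500796 to 57555527, protein coding) encodes NKCC1, the basolateral entry path for K+ and chloride. It was listed at 0 reads in the type I cell and at 0 in the type II cell, with limits of 0.0764 and 0.0717 TPM. The whole crista gave 34826 reads (34461 to 35194), the most of the 5 genes before length is considered, or 219.7 TPM. Set at the limits, its listed level was 2876-fold lower in the type I and 3063-fold lower in the type II cell. These were the largest such folds among the 3 genes listed at 0. Over the scales tried they went down to 221 in both cells. *RAC1*, with 219 TPM in the whole crista, was also listed at 0 in both hair cells. Such a fold therefore rests on the crista level and the limit alone.

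By the reads listed, the cotransporter family differed in makeup between hair cells and crista. Of the 9 symbols on the list 8 were matched, and the other may be present under an identifier alone. Reads came from 2 of the 8 in the type I cell, 1 in the type II cell and 8 in the whole crista. The shares of all genes were 7.77%, 7.91% and 59.8%. *SLC12A7*, which encodes the K-Cl cotransporter KCC4 that carries both ions out of cells, had 10055 reads (468 TPM) in the type I cell, 13999 reads (578 TPM) in the type II cell and 3597 reads (32.6 TPM) in the whole crista. It was 14.3-fold higher in the type I and 17.7-fold higher in the type II cell than in the whole crista. By share of the summed TPM of the matched genes, *SLC12A7* held 99.99% in the type I cell, 100% in the type II cell and 9.82% in the whole crista, where *SLC12A2* held 66.2% and *SLC12A4* 16.1%. Reads of the inward cotransporter gene were thus found in the crista library alone, and nearly all cotransporter reads of the hair cells came from a gene for an outward one.

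**Figure D2:**
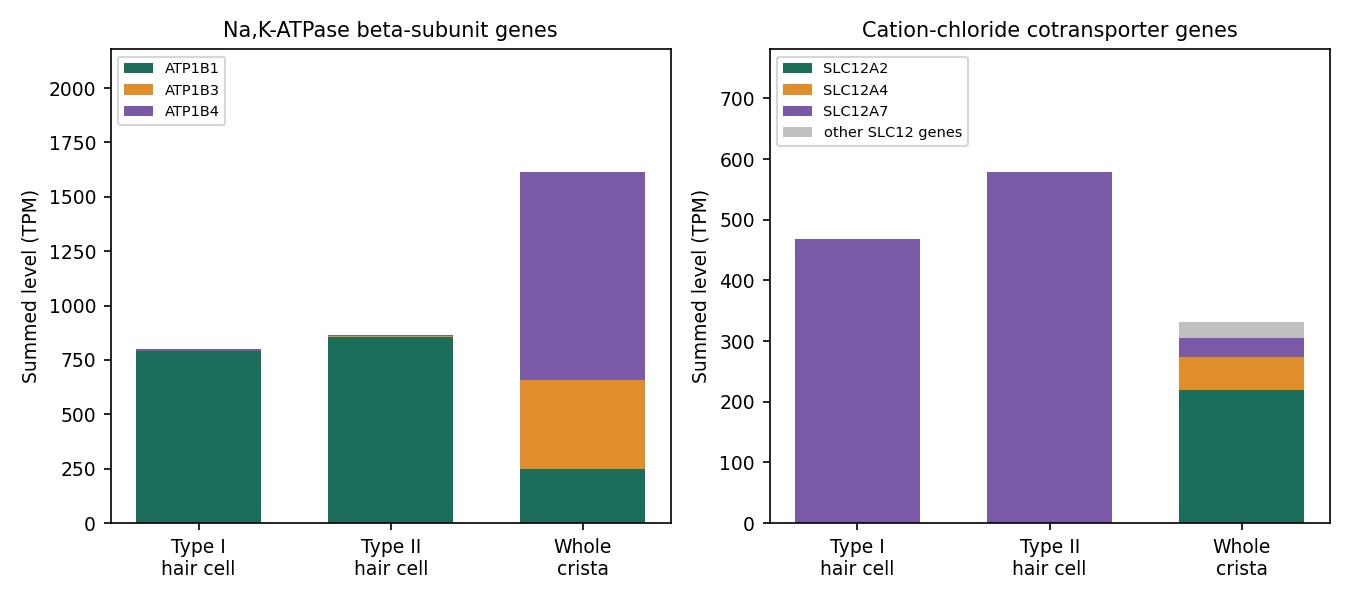
Summed level in TPM of the Na,K-ATPase beta-subunit genes (left) and of the *SLC12* cotransporter genes (right) in the type I cell, the type II cell and the whole crista, 1 library each, with a colour for each gene. *ATP1B1* filled 98.4% and 99.1% of the beta-subunit bar in the type I and type II cell and 15.4% in the whole crista, and *SLC12A2* filled 0%, 0% and 66.2% of the cotransporter bar.

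Of 7 matched genes for the kinases that switch NKCC1 on and their partners, 2 were detected in the type I cell, 2 in the type II cell and 7 in the whole crista, beside the 7.77%, 7.91% and 59.8% of all genes. *WNK2*, a kinase at the head of this cascade, had 1026 reads (16.3 TPM) in the type I cell, 830 (12.8 TPM) in the type II cell and 4456 (16.1 TPM) in the whole crista, and so lay within 2-fold in every pair. *WNK1* had 15 reads in the type I cell, 1 in the type II cell and 3540 in the whole crista. *STK39* and *OXSR1*, the kinases that act on the cotransporter itself, and *CAB39*, which activates them, were listed at 0 in both hair cells and had 36.3, 12.5 and 91.9 TPM in the whole crista.

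*BSND* (ENSGALG00010022779, chromosome 8, 24962516 to 24964204, protein coding) encodes barttin, a subunit without which the basolateral chloride channels do not reach the membrane. It was listed at 0 reads in the type I cell and at 0 in the type II cell, with limits of 0.430 and 0.411 TPM, against 1448 reads (1374 to 1525) or 57.6 TPM in the whole crista. Set at these limits, its listed level lay 134-fold lower in the type I and 140.2-fold lower in the type II cell. On other scales these folds went down to 58.6 in both cells. The 9 matched genes of the CLC list, *BSND* included, had no read in a hair cell, where 7.77% (type I cell) and 7.91% (type II cell) of all genes had one, so that so short a list says little by its count. All 9 had reads in the whole crista, *CLCN3*, an intracellular chloride-proton exchanger, highest among them with 65.1 TPM.

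*ATP1B1* (ENSGALG00010005362, chromosome 1, 84030061 to 84044055, protein coding) encodes the beta-1 subunit that the catalytic subunit of the Na,K-ATPase needs to mature and reach the membrane. The type I cell held 14558 reads (14323 to 14796), or 789 TPM (776 to 802). The type II cell held 17123 reads (16868 to 17381), or 857 TPM (845 to 870.3). The whole crista held 18108 reads (17845 to 18374), or 248 TPM. *ATP1B1* was the most abundant of the 5 genes in either hair cell, above 88.8% of the detected genes in the type I and above 89.3% in the type II cell, and took 0.135% and 0.143% of their reads, against 0.0269% in the whole crista. Set against the whole crista it was 3.18-fold higher in the type I cell (log2 ratio 1.67, counting interval of the ratio 3.11 to 3.25) and 3.45-fold higher in the type II cell (log2 ratio 1.79, interval 3.38 to 3.53). This exceeded the ratio of 70.0% of genes having 10 reads or more in both libraries for the type I cell, and of 69.9% for the type II cell. Between the hair cells the ratio, type I over type II, was 0.920 (counting interval 0.900 to 0.941, log2 ratio -0.12), less than 2-fold, and no replicate cell gives a spread to set it against. The gene *NME7* overlaps *ATP1B1* over 187 bases and had 18271 reads in the type I cell, 22120 in the type II cell and 4909 in the whole crista. The libraries are not stated to keep strand, so reads from the shared stretch cannot be told apart.

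Transcripts of the other matched beta subunits were scarcer in both hair cells than in the whole crista. *ATP1B3*, the beta-3 subunit, had 84 reads (2.92 TPM) in the type I cell, 69 (2.11 TPM) in the type II cell and 29110 (408 TPM) in the whole crista, and was thus 139.5-fold lower in the type I and 193-fold lower in the type II cell. *ATP1B4*, which in birds still encodes a pump subunit whereas the protein of placental mammals does not act as one, had 172 reads (9.51 TPM), 102 (5.56 TPM) and 66925 (957 TPM) in the same libraries, 100.6-fold lower in the type I and 172-fold lower in the type II cell. *ATP1B1* was the only one of the 3 beta-subunit genes that was higher in a hair cell than in the whole crista. *FXYD6*, a small regulatory subunit of the pump, was listed at 0 in both hair cells against 106.3 TPM in the whole crista.

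The matched beta-subunit transcripts thus differed in makeup between hair cells and crista. *ATP1B1* made up 98.4% of the matched beta-subunit TPM in the type I cell and 99.1% in the type II cell, but 15.4% in the whole crista, where *ATP1B4* made up 59.3% and *ATP1B3* 25.3%. The summed level of the 3 genes was 802 TPM in the type I cell, 865 in the type II cell and 1614 in the whole crista. The beta-1 transcript was therefore nearly the whole of this sum in the hair cells and the smallest part of it in the crista. Of 15 pump symbols on the list 10 matched no symbol in the gene table, so further subunits may be present under an identifier alone and are not in these shares.

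Read against all genes, the members' counts were as follows. A gene was counted as higher or lower past 2-fold in TPM, with at least 10 reads in either library. Between type I and type II cell, 2 members had enough reads and neither passed 2-fold, while 9.57% of all 1797 such genes were higher and 2.17% lower in the type I cell. Against the whole crista, 1 member was higher and 4 were lower in the type I cell, where 4.39% of 16177 genes were higher and 87.4% lower. In the type II cell the counts were again 1 higher and 4 lower, where 4.32% of 16174 genes were higher and 88% lower. The members' lower counts were thus near the share of all genes. *ATP1B1* belonged to the genes that were higher, a share that counts many genes without a hair cell read. Among genes having 10 reads or more in both libraries, *ATP1B1* exceeded only 70.0% of 1751 (type I cell) and 69.9% of 1696 (type II cell). The scale shifts all ratios to the whole crista, since the median log2 ratio of genes having 10 reads or more in both libraries was -0.12 (type I cell) and -0.11 (type II cell) in TPM but 0.44 and 0.33 in CPM. No member changed direction, and the fold of *ATP1B1* over the whole crista ranged between 3.17 and 5.27 in the type I and between 3.44 and 5.71 in the type II cell over the scales tried.

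**Figure D3:**
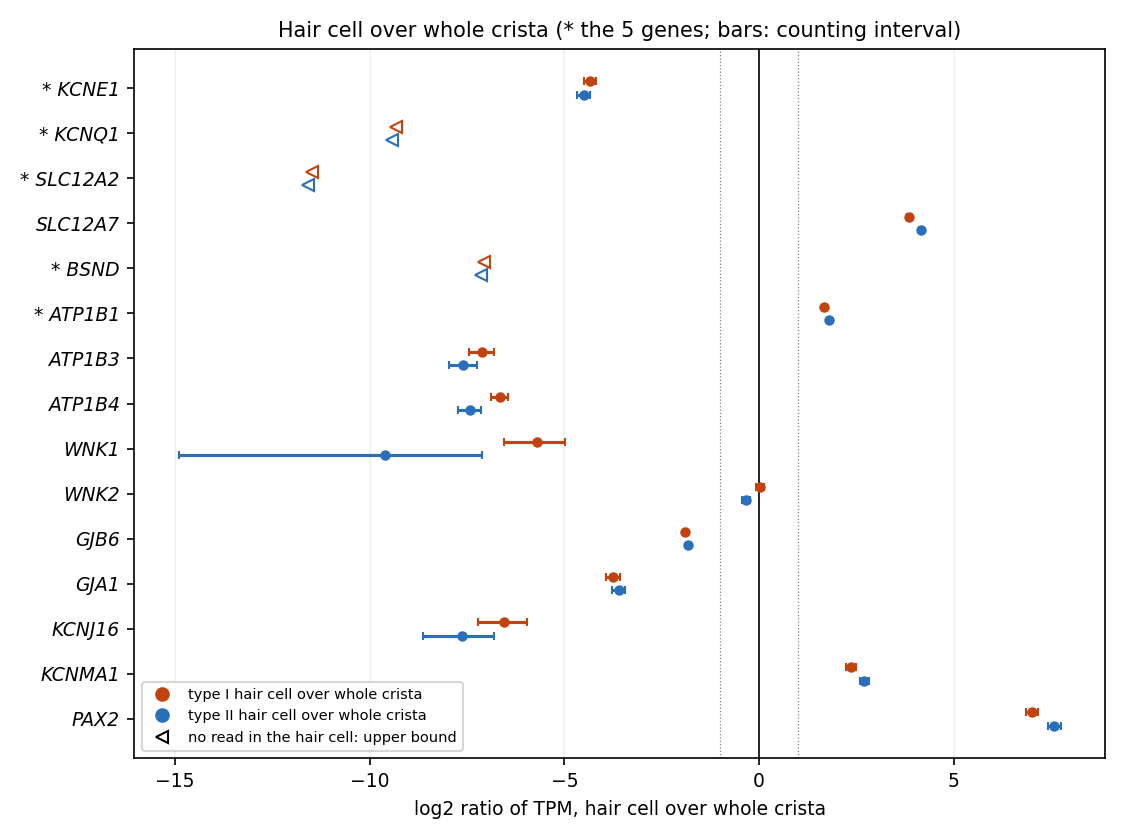
Log2 ratio of TPM of each hair cell over the whole crista for the 5 genes (marked by an asterisk) and for 10 other pathway genes with at least 10 reads in a hair cell, with bars for the counting interval, open triangles for the upper bound of genes without a read, and dotted lines at 2-fold. *ATP1B1* sat at 1.67 and 1.79 in the type I and type II cell and *KCNE1* at -4.34 and -4.51, with *SLC12A7*, *KCNMA1* and *PAX2* the other genes beyond 2-fold on the right.

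The rest of the secretion pathway was described from lists holding 63 matched genes besides the members. Of these, 14 had a read in the type I cell, 13 in the type II cell and 61 in the whole crista, and 48 had no read in either hair cell. Their median level was 0 TPM in both hair cells and 15.6 TPM in the whole crista, where the median of all detected genes was 8.54 TPM. With enough reads for 60 of them against the whole crista, 3 were higher and 55 lower past 2-fold in the type I cell, and 3 higher and 55 lower in the type II cell. The detected shares were 22.2% in the type I cell, 20.6% in the type II cell and 96.8% in the whole crista. Those of all genes were 7.77%, 7.91% and 59.8%, but all genes include 15011 with an identifier alone, while the listed genes all have a symbol. Of named genes with a crista read, 83.1% had none in either hair cell, beside 48 of the 63 here. Unlike that share, the 48 include *KCNE5* and *FOXI1*, which had no crista read. The counts of lower genes were near the background of all genes. Between the hair cells 11 had enough reads, of which *WNK1* and the inward rectifier gene *KCNJ16* were past 2-fold higher in the type I cell and none lower, both from 22 reads or fewer.

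Among genes by which K+ is returned from hair cells to the endolymph, 4 of 8 matched genes gave reads in the type I cell, 4 in the type II cell and 8 in the whole crista. The shares of all genes were 7.77%, 7.91% and 59.8%. *GJB6*, the gap junction protein connexin 30 that couples supporting cells, had 349 TPM in the type I cell, 374 in the type II cell and 1316 in the whole crista. *GJA1* (connexin 43) had 7.73, 8.54 and 104 TPM in these libraries, while *GJB2* (connexin 26) was listed at 0 in both hair cells and had 308 TPM in the whole crista. *KCNMA1*, the pore of the large-conductance Ca2+-activated K+ channel that hair cells use, was 5.11-fold higher in the type I cell (29.0 TPM) and 6.46-fold higher in the type II cell (36.7 TPM) than in the whole crista (5.67 TPM). The 12 matched genes for acid-base and other endolymph transport had no read in a hair cell, a count that says as little beside the 7.77% and 7.91% of all genes, and all 12 had reads in the whole crista, led by the carbonic anhydrase gene *CA2* with 204 TPM.

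Regulators linked to the identity of dark or marginal cells in the mouse were represented by 9 genes. Of these, 2 had a read in the type I cell, 3 in the type II cell and 8 in the whole crista. Beside the 7.77%, 7.91% and 59.8% of all genes, so short a list says little by its count. *ESRRB*, a nuclear receptor needed in the mouse for marginal cells to express their transport genes, was listed at 0 in both hair cells and had 84.1 TPM in the whole crista. *LMX1A* (146 TPM) and *MEIS1* (79.8 TPM), transcription factors of the developing inner ear, were likewise read in the whole crista alone. So were 83.1% of all named genes with a crista read. *PAX2*, another otic transcription factor, stood apart with 518 TPM in the type I cell, 773 in the type II cell and 4.04 in the whole crista, a 128-fold and a 191-fold higher level in the hair cells.

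Markers of other cells that lie in a crista or could reach a pipette were read beside these genes. Supporting cell markers had 7 of 13 genes detected in the type I cell, 6 in the type II cell and 13 in the whole crista, with summed levels of 1913, 2293 and 15907 TPM. *COCH* gave 1007, 1238 and 11434 TPM of these. *CDKN1B*, a cell cycle inhibitor, ran the other way, with 519 TPM in the type I cell, 647 in the type II cell and 48.1 in the whole crista. *OTOG*, *OTOGL*, *TECTA*, *TECTB*, *SOX2* and *GFAP* were listed at 0 in both hair cells. The paper marks *Sox2* as found in both cells, which differs from the listing here, and the cause was not tested. In mammals melanocytes lie beneath dark cells. Melanocyte markers had 1 of 9 genes detected in the type I cell, 1 in the type II cell and 8 in the whole crista. Their summed levels were 0.358, 0.429 and 208 TPM. Beside the supporting cell and melanocyte counts, the shares of all genes detected were 7.77%, 7.91% and 59.8% in that order of libraries. So short a melanocyte list says little by its count. Erythroid markers were at 0 in both hair cells and summed to 30747 TPM in the whole crista, and Schwann cell, neuron and endothelium markers summed to 0, 0.201 and 3347 TPM. The part these cells have in the levels of the 5 genes was not tested, and the crista library does not say in which of its cells the 5 genes were expressed.

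**Figure D4:**
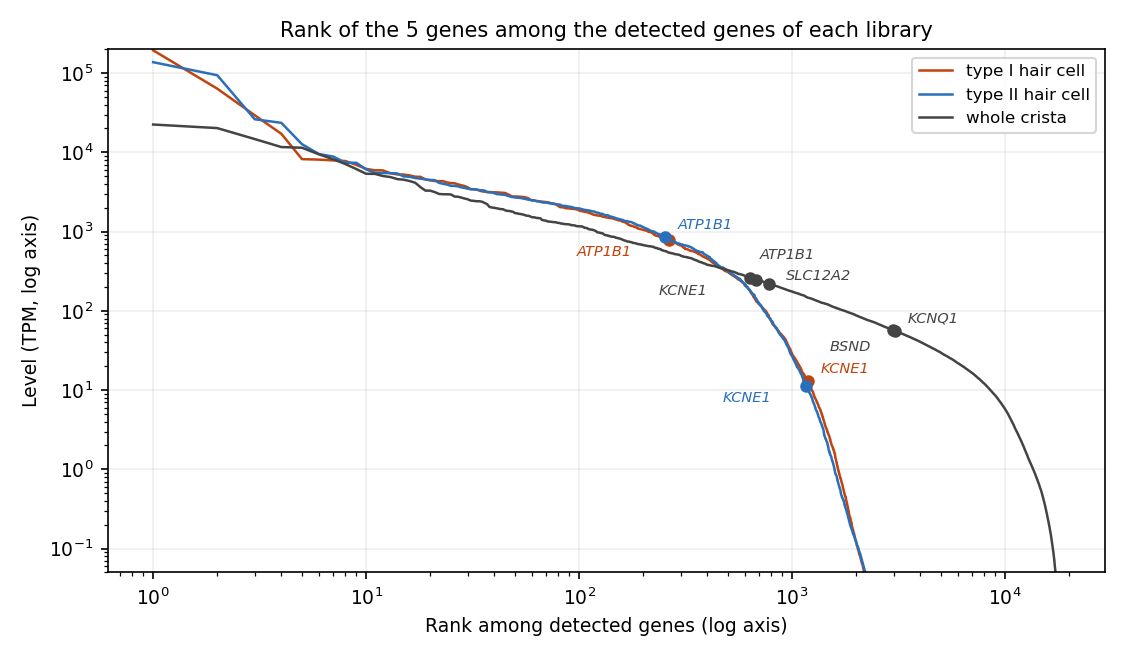
Level in TPM against rank by level among the detected genes of the type I cell, the type II cell and the whole crista (log axes), with the 5 genes marked where they had reads. *KCNE1* ranked 1183 of 2340 and 1165 of 2381 in the type I and type II cell, on the steep part of the curve, against 637 of 18001 in the whole crista, while *ATP1B1* ranked 263, 254 and 676.

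The genes with the most similar levels were found by Euclidean distance on log2(TPM + 1) over the 3 libraries, among genes with a symbol. Nearest to *KCNE1* was *OCIAD2* (distance 0.106), with 12.0 TPM in the type I cell, 11.4 in the type II cell and 268 in the whole crista, followed by *TMOD3* (0.294) and *PPP1R1C* (0.485). Nearest to *ATP1B1* was *ZNF207* (0.223), with 756, 908 and 285 TPM in these libraries, followed by *PPIC* (0.303) and *RPL9* (0.332). For the members without a read in a hair cell, closeness rests on the crista level alone, and 10726 of 12903 named genes with a crista read (83.1%) had none in either hair cell. *KCNQ1* was nearest to *YAP1*, *KCNJ15* and *DCTN4*, *SLC12A2* to *PIGK*, *RAC1* and *STXBP3*, and *BSND* to *EIF2B2*, *LRRC8D* and *TMEM231*, at distances below those of any neighbour of *KCNE1* or *ATP1B1*.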

How the data were processed

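Per library and gene, the files deposited by the authors hold an estimated count, not always whole, and a TPM value. Both were used as deposited, and estimated counts were rounded only for intervals. The submitters' processing notes name DRAGEN, bcl2fastq 2.20.0.422 and the GRCg7b build. The paper's methods name DRAGEN for the whole organ, and the pipeline of the single cells is not given in the sources used here. Of 30108 genes, 15097 have a symbol. Positions come from the RefSeq annotation of GRCg7b, matched by symbol. The crista was sequenced as paired-end and the hair cells as single reads.

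The 5 members were read by symbol. Members and gene lists were chosen with earlier results of these data known. The text names the members, the gene with the highest TPM of each pathway list and those with at least 10 reads in a hair cell, and the 3 genes nearest each member. Other genes (*KCNE2*, *SLC12A4*, *STK39*, *OXSR1*, *FXYD6*, *GJB2*, *ESRRB*, *MEIS1*, *NME7* and the single markers) were chosen after their values were seen.

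Intervals of TPM ratios are exact and conditional on the summed reads. A ratio to a gene without a read uses 3 reads per library. Alternatives were other detection thresholds, CPM, CPM without mitochondrial genes, the median ratio, a common gene length and log2(TPM + 1). A 4-fold limit and reads without length correction were tried as well. The 4-fold limit for the members was added after values were seen. Also not planned beforehand were CPM and the median ratio for counts past 2-fold, and family shares without length correction. Promoter sequences were not used here, and some pathway genes are counted in their lists but not reported singly. The software was scipy 1.17.1, matplotlib 3.10.9, pandas 2.3.3 and numpy 2.4.6 under Python 3.11.15, and the calculations were tested on simulated data.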

Additional observations from a re-analysis of the deposited data

How the results depend on the processing

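No member changed direction and none was gained or lost as detected under the alternatives tried, with 2 members detected in the type I cell, 2 in the type II cell and 5 in the whole crista throughout. At a 4-fold limit in place of 2-fold, 0 members were higher in the type I cell and 0 in the type II cell than in the whole crista, since *ATP1B1* lay below it. The other pathway genes higher in the type I than in the type II cell were then 1, and also 1 with the median ratio. In the whole crista, *KCNE1* over *KCNQ1* was 4.91 with reads per full gene length and 3.59 without length correction, against 4.64 in TPM, and *SLC12A2* over *KCNQ1* was 4.42 without length correction, against 3.93 in TPM. On log2(TPM + 1) the bounds of the genes without a read shrank, over the whole crista to -5.83 for *KCNQ1*, -7.79 for *SLC12A2* and -5.87 for *BSND* in both hair cells. Over all results and alternatives, 53 counts of genes stayed within 1.5 times and 4 did not, and 19 ratios or shares stayed within their counting interval and 21 did not. The 30 alternative values for genes without a read are bounds with no interval, and all kept their direction. No paired analysis was possible because each group has 1 library. Depth limits a gene without a read to 0.278 CPM (type I cell) or 0.251 CPM (type II cell), and stage, input and cell makeup cannot be told apart between the hair cells and the crista.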
